A study of Mus musculus with 3 samples.

Results

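A rule on globin transcripts picked 126 of the 26757 aortic cells that passed the filter on cells. They are called erythroid, the red cell lineage, below, although that name is uncertain for some of them. A cell was counted as erythroid when the adult globin transcripts Hba-a1, Hba-a2, Hbb-bs and Hbb-bt held at least 5% of its unique molecular identifiers (UMIs, each marking 1 captured transcript) and the smooth muscle transcripts Acta2 and Tagln together held under 1%. The filter required at least 200 detected genes and under 20% of UMIs from mitochondrial genes. The members were thus selected on measured values, and their globin share and their distance from smooth muscle cells are descriptions, not findings.

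The cells came from the aortas of male mice in which the human APOE2, APOE3 or APOE4 gene replaces mouse Apoe at its own locus, on the C57BL/6J background. Feeding of a Western diet, of which fat gave 42% of calories and cholesterol made up 0.2%, began at 12 weeks of age and lasted 16 weeks in all groups, so no group on another diet and no wild-type group enters these values. Each genotype is represented by 1 droplet library made from pooled aortas, with 6 mice in the APOE2 pool, 5 in the APOE3 pool and 7 in the APOE4 pool, and the labels do not give the mouse of origin of a cell. The mice were perfused with saline before the aortas were taken from the arch to the iliac bifurcation, and no step that lyses red cells is named in the methods. The comparison of genotypes asks how the cell makeup of the aorta differs with the apoE isoform. With 1 library per genotype no difference could be tested, and the 95% intervals given below are exact and cover counting error only.

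Red cells are made in the bone marrow from nucleated erythroblasts, which fill with haemoglobin, stop dividing and expel their nucleus. The resulting reticulocyte still carries messenger RNA, dominated by globin transcripts, and enters the blood, where it degrades its mitochondria, ribosomes and remaining RNA to become a mature erythrocyte. Adult haemoglobin holds alpha and beta chains in equal number, each with a haem group whose synthesis begins with the enzyme encoded by Alas2.

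The 126 cells carried few transcripts besides globins. Globins held 77.3% of their UMIs, or 591783 of 765522, which left 173739 UMIs for all other genes. The median cell held 5568.5 UMIs, of which 686 were not globin, and 261 detected genes, against 13777 UMIs and 3783 genes in the other 26631 cells. Their globin share had a median of 85.7% and ran from 5.72% to 95.2%. It reached at least 80% in 82 cells and lay under 50% in 26.

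By library, the median globin share was 84.7% in the APOE2 cells (lowest 5.72%, highest 94.1%), 91.8% in the APOE3 cells (23.1% to 93.8%) and 89.0% in the APOE4 cells (6.69% to 95.2%). The 3 ranges overlapped over most of their length. The APOE3 median rests on 6 cells and was 19.8% over the 13 cells found without the limit on Acta2 and Tagln. The members nearest the globin limit had 5.72%, 6.69% and 8.11% globin, and the nearest cells outside it 4.47%, 3.07% and 2.76%. The gene limit cut through a denser region, with members at 202, 203 and 204 genes and excluded barcodes at 199, 199 and 198. A further 58 cells passed the globin limit but held 1% or more Acta2 and Tagln, with 0.972% in the nearest member and 1.04% in the nearest cell outside.

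**Figure D1:**
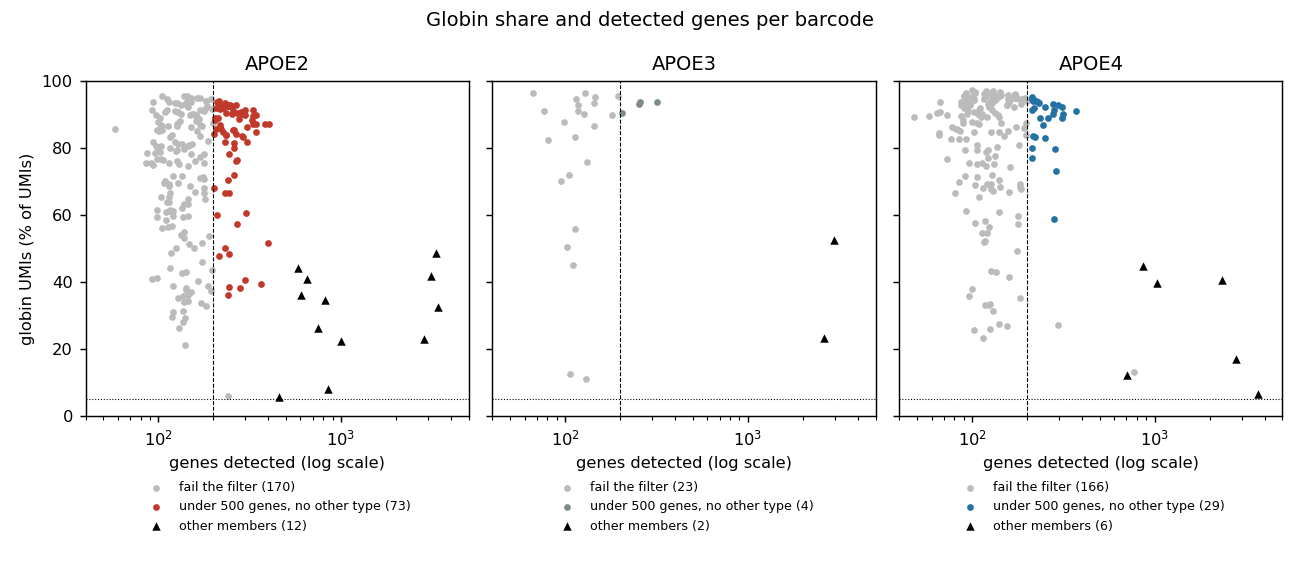
Globin share of UMIs (vertical, %) against detected genes (horizontal, log scale) for each barcode within the globin and smooth muscle limits, by library. Grey points fail the filter on genes or mitochondrial UMIs. Coloured points are members with under 500 genes and under 10 UMIs of every other type's marker list, and black triangles are the other members. Dashed and dotted lines mark 200 genes and 5% globin. Most members sit just to the right of 200 genes, and the grey points continue the same cloud to the left.

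The label was checked against markers that the rule did not use. Alas2, the erythroid enzyme that starts haem synthesis, was detected in 117 of the 126 cells. Slc4a1, the anion exchanger band 3 of the red cell membrane, was detected in 43. Hemgn had 5 UMIs and Epb42 9 UMIs in all members together. Klf1, a transcription factor of nucleated erythroid precursors, had no UMI, and Gata1 had 1. Rhag and Ermap also had none, and Ahsp was not analysed here. Some members of low globin share lacked Alas2, among them an APOE4 cell with 39.6% globin and 60 UMIs of fibroblast markers. An APOE2 cell with 5.72% globin had 1 Alas2 UMI and 28 UMIs of macrophage markers. The name erythroid is uncertain for such members, which are included in the counts of each library. No member shared its barcode sequence with a cell of another library, although 26, 30 and 23 barcodes recurred between the pairs of libraries.

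Several of the deeper members also carried markers of another cell type. There were 19 members with 500 or more genes, 11 from APOE2, 2 from APOE3 and 6 from APOE4, and they held 58.0% of all non-globin UMIs of the members. Of these 19, 13 had at least 10 UMIs from the marker list of another type, as did all 9 members with 5000 or more non-globin UMIs. In all, 14 members reached that mark, 9 for fibroblast, 4 for smooth muscle, 2 for macrophage and 1 for B lymphocyte markers, with some cells counted under more than 1 list. The deepest APOE4 member had 417 fibroblast UMIs and 6.69% globin, and an APOE2 member had 297 macrophage UMIs and 41.8% globin. Whether these droplets held more than 1 cell was not tested. The deep members held 51.2% of the non-globin UMIs of the APOE2 members, 87.1% in APOE3 and 60.6% in APOE4, so gene levels over all members of a library depend on them, most of all in APOE3. The main values are therefore also given for the 106 low-gene cells (73 APOE2, 4 APOE3 and 29 APOE4). These are the members with under 500 genes and under 10 UMIs of every other list. A shallow cell can stay under that mark. Low-gene APOE2 cells with 399 and 318 non-globin UMIs held 7 smooth muscle UMIs each and at most 1 Alas2 UMI.

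The adult globin genes lie in 2 clusters of the mouse genome (GRCm38). Hba-a1 spans chr11:32283511-32284465 and Hba-a2 chr11:32296489-32297298, both on the forward strand. Hbb-bs spans chr7:103826534-103828096 and Hbb-bt chr7:103812524-103813996, both on the reverse strand. The 4 genes were the members' most abundant transcripts, with 328097 UMIs for Hbb-bs, 108851 for Hba-a1, 80961 for Hba-a2 and 73874 for Hbb-bt. Short stretches upstream of their RefSeq starts are shown because these 4 genes define the cells. Capitals mark letters found in a search of both strands. The search was for a GATA form (any of AGATAA or AGATAG or TGATAA or TGATAG), for CACCC and for CCAAT. In the Hbb-bt stretch the capitals cover a CCAAT read on the opposite strand and, directly after it, a CCAAT on the strand of the gene. The stretches are written 5′ to 3′ on the strand of the gene, with sequences from RefSeq for GRCm38.p6.
Hba-a1: TGATAAggattccctgCACCC
Hba-a2: TGATAAggattccctgCACCC
Hbb-bs: CACCCtggtaagggCCAAT
Hbb-bt: CACCCtggcATTGGCCAAT

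The Hba-a1 stretch lies at chr11:32283489-32283509, from 183 to 163 bases before the start, and the same 21 bases precede Hba-a2 at chr11:32296306-32296326. The Hbb-bs stretch lies at chr7:103828000-103828018, from 90 to 72 bases before the start, and the Hbb-bt stretch at chr7:103813994-103814012, from 89 to 71 bases before it. These beta stretches have the same letter at 16 of 19 positions. GENCODE places the outer end of Hbb-bs and of Hbb-bt upstream of the RefSeq start, so the Hbb-bs stretch falls inside the GENCODE span and the Hbb-bt stretch overlaps its edge. Such letters are common, since among 32851 upstream windows of 250 bases 26.5% held a GATA form, 52.0% CACCC and 33.8% CCAAT. The Alas2 window held 1 GATA form and 3 CACCC. Of the 20 genes with the largest fold in erythroid cells, described below, 13 had a window, and 3 of these held a GATA form, 6 CACCC and 5 CCAAT. No matches within the windows of Alas2 and the 4 globin genes overlapped each other. A match describes the letters and not a bound site.

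The balance of the globin chains was narrow in counting error and varied between cells. Alpha chain transcripts made up 32.1% of adult globin UMIs over all members, with 30.2% in the APOE2, 34.1% in the APOE3 and 34.9% in the APOE4 library. Cell by cell this share ran from 24.3% to 62.1% in APOE2, with a median of 30.2%, from 18.9% to 42.9% in APOE3, and from 23.2% to 48.7% in APOE4, with a median of 36.0%. The APOE2 cells were thus the lowest in the median while the ranges overlapped.

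Hbb-bt, the second adult beta gene, gave 18.4% of beta UMIs, with 18.6%, 17.1% and 18.2% in the APOE2, APOE3 and APOE4 libraries. Hba-a2 gave 42.7% of alpha UMIs, with 43.0%, 42.3% and 42.2%. In the other cells of the same libraries Hbb-bt gave 16.0%, 11.0% and 12.9% of beta UMIs, below the members in each library. The split within each pair is uncertain, because the transcripts of Hba-a1 and Hba-a2 share 96.9% of the bases of the shorter one and those of Hbb-bs and Hbb-bt 93.2%, and the treatment of reads that match both genes could shift it. The embryonic globins Hba-x, Hbb-y, Hbb-bh1 and Hbb-bh2 had no UMI, while the theta globin genes Hbq1b and Hbq1a had 35 and 12.

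The APOE3 library held the fewest erythroid cells. There were 85 among 11772 APOE2 cells, or 0.722% (Clopper-Pearson interval 0.577% to 0.892%), 6 among 6737 APOE3 cells, or 0.0891% (0.0327% to 0.194%), and 35 among 8248 APOE4 cells, or 0.424% (0.296% to 0.590%). On the log2 scale the APOE2 share was 3.02 above that of APOE3 (1.84 to 4.51), the APOE4 share 2.25 above it (0.99 to 3.79), and the APOE2 share 0.77 above that of APOE4 (0.18 to 1.38). Fewer red cells left in the vessels and fewer recovered in the pool cannot be told apart, nor can genotype and library.

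The order of APOE2 and APOE4 rested on the filter. Among all 28506 deposited barcodes, 485 met the globin and smooth muscle limits, 255 in APOE2 (2.08%, 1.83% to 2.34%), 29 in APOE3 (0.400%, 0.268% to 0.574%) and 201 in APOE4 (2.24%, 1.94% to 2.57%). The log2 ratio of APOE2 to APOE4 was then -0.11 (-0.38 to 0.16), while APOE3 remained the lowest. Of the 359 barcodes that failed the filter, 356 had under 200 genes.

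**Figure D2:**
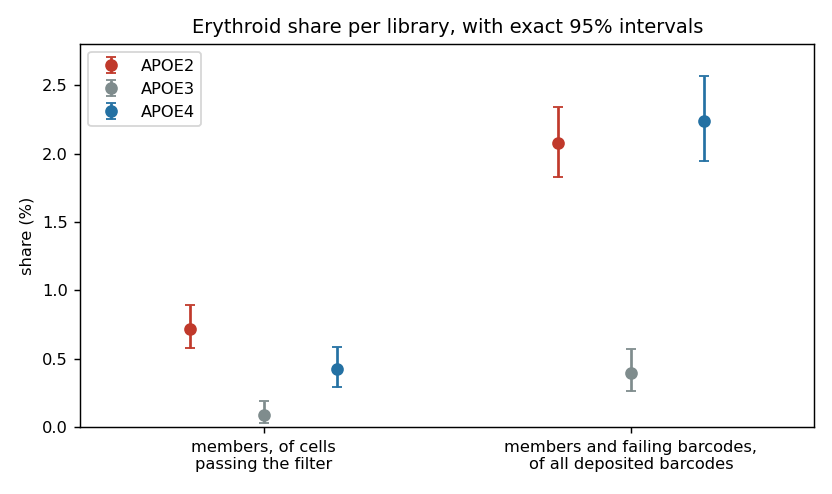
Erythroid share in each library (vertical, %), as a share of the cells that passed the filter (left) and, counting the barcodes that failed it, of all deposited barcodes (right). Points are shares and bars exact 95% intervals of counting error. APOE3 is lowest in both, at 0.0891% and 0.400%, and APOE2 is above APOE4 only on the left.

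Genes other than globins were compared with the other cells on the scale of UMIs per 1000000 non-globin UMIs (CPM below), summed over cells. This scale was used because globins held 77.3% of the members' UMIs, and on the scale of all UMIs every log2 fold falls by 2.14. A gene was counted when its UMIs in the members plus those expected there at the level of the other cells came to at least 20, and 2472 genes were. Of these, 158 were at least 4-fold higher in the erythroid cells, which is 6.39% of the genes counted, and 105 at least 4-fold lower, which is 4.25%. The median log2 fold was -0.45. A gene could enter through its UMIs in the members alone, so counts of members of a list are descriptions. In the 106 low-gene cells 158 of 838 counted genes were as much higher and 263 as much lower.

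The largest fold belonged to Apol11b, and several genes with known roles in red cells were among the 20. Apol11b, of the apolipoprotein L family, stood at 958 CPM in APOE2, 106 in APOE3 and 780 in APOE4, against 0.0479 in the other cells, a log2 fold of 14.02 (13.37 to 14.80). Slc4a1 stood at 655, 52.8 and 324 CPM, against 0.0743, a log2 fold of 12.67 (12.08 to 13.33). In both genes the level of each library was far above that of the other cells. The choice of genes required that direction in APOE2 and APOE4. The 2 APOE3 UMIs of Apol11b came from 1 cell, and the APOE3 value of Slc4a1 was 1 UMI.

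Car2, a carbonic anhydrase that hydrates carbon dioxide in red cells, stood at 3618, 1691 and 2170 CPM in APOE2, APOE3 and APOE4, against 0.465 in the other cells. Bpgm, which makes the 2,3-bisphosphoglycerate that lowers the oxygen affinity of haemoglobin, stood at 7734, 3594 and 8241 CPM, against 17.6, a log2 fold of 8.73. It was detected in 116 of the 126 members. Cd24a, a surface glycoprotein, stood at 2435, 687 and 1941 CPM, and Tspo2, an erythroid relative of the translocator protein, at 596, 211 and 171, both from at most 2.64 CPM in the other cells. Over all members Car2, Cd24a and Tspo2 were highest in APOE2 and Bpgm in APOE4. In the low-gene cells Car2 stood at 7460, 7761 and 5268 CPM, highest in APOE3 from 19 UMIs, and Bpgm at 15022, 18382 and 20539.

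The remaining leading genes had log2 folds from 10.16 down to 7.26. They included Tent5c, a poly(A) polymerase, at 3822 CPM over all members against 24.95, Prxl2a, a peroxiredoxin-like protein, at 1830 against 8.57, E2f2, a transcription factor of the E2F family, at 311 against 0.781, and the non-coding transcript AI662270 at 294 against 1.48. Rec114, a gene known for meiotic recombination, stood at 345 CPM against 1.18 and was detected in 31 members. Further genes of the 20 are described with their groups.

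**Figure D3:**
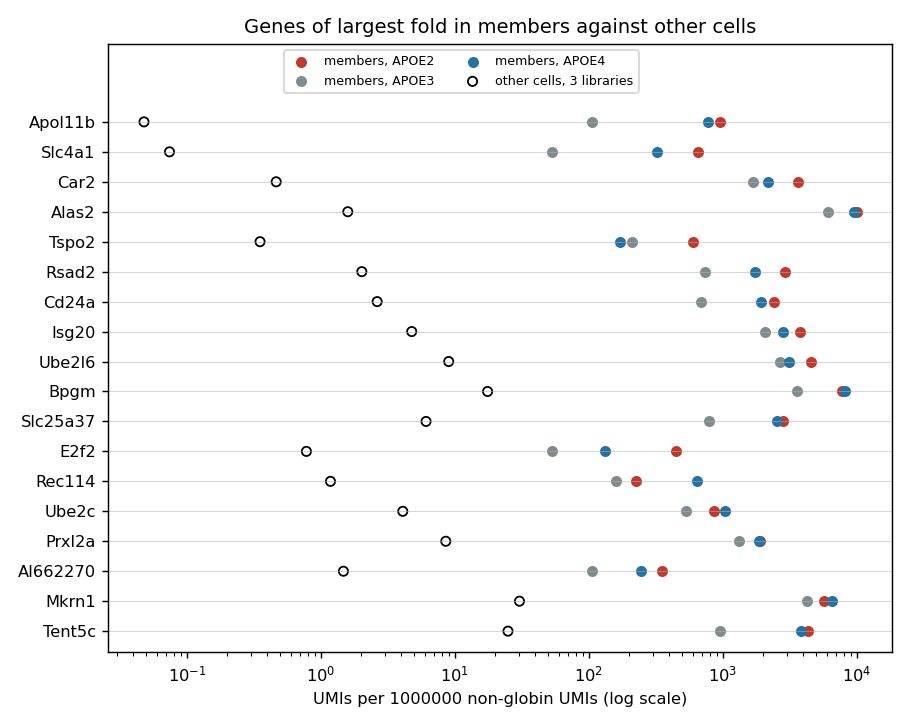
UMIs per 1000000 non-globin UMIs (horizontal, log scale) of 18 of the 20 genes with the largest fold, from the largest at the top. Filled points are the erythroid cells of each library and open circles the other cells of the 3 libraries together. In every row all filled points lie to the right of the open circle, and 87.1% of the non-globin UMIs behind the APOE3 points come from 2 deep members.

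Of the haem synthesis list, 4 of 13 genes were counted and 2 were at least 4-fold higher. Alas2 stood at 10022 CPM in APOE2, 6130 in APOE3 and 9555 in APOE4, against 1.59 in the other cells, a log2 fold of 12.54 (12.41 to 12.67). Fech, ferrochelatase, which inserts iron at the last step of the pathway, stood at 1780, 846 and 2151 CPM, against 24.6, a log2 fold of 6.19. The first and last enzymes of the pathway were thus above the other cells in all 3 libraries. In the low-gene cells Alas2 stood at 19247 CPM in APOE2, 35131 in APOE3 and 22134 in APOE4, so APOE3, with 86 UMIs in 4 cells, turned from the lowest to the highest. The intermediate enzyme gene Urod had a log2 fold of 1.62 and Tmem14c, a mitochondrial porphyrin carrier, -0.36. The list's median was 3.91, against -0.45 over all genes counted, and all 13 genes had at least 1 UMI. Alad and Cpox had 5 and 6 UMIs.

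Of the iron list, 5 of 11 genes were counted and 3 were at least 4-fold higher. Slc25a37, mitoferrin, which carries iron into the mitochondrion, stood at 2816, 793 and 2550 CPM in APOE2, APOE3 and APOE4, against 6.11, a log2 fold of 8.69. Ncoa4, which delivers ferritin to autophagy, had a log2 fold of 4.30 and the ferritin light chain gene Ftl1 3.12, which was 1.51 without the limit on Acta2 and Tagln and 1.92 in the 15 members with at least 500 genes and under 10% mitochondrial UMIs. The ferritin heavy chain gene Fth1, at 11109 against 11501 CPM, had a log2 fold of -0.05 and the iron chaperone gene Pcbp1 -0.73. Tfrc, the transferrin receptor through which erythroid precursors take up iron, had 1 UMI in the members, and 2999 of the 26631 other cells had at least 1. That share, 11.3%, came from cells of greater depth, and thinned to 1000 UMIs it was 0.966%. The 0 of 120 thinned members allow a share of up to 2.50%, so a difference was not detectable.

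Of the membrane and skeleton list, 5 of 20 genes were counted and 4 were at least 4-fold higher. Among them were Slc4a1, described above, and Epb41, a protein of the membrane skeleton that joins spectrin to actin. Epb41 stood at 2112 CPM in APOE2, 687 in APOE3 and 3673 in APOE4, against 25.95, and APOE4 was the highest, as in the low-gene cells with 4080, 4085 and 8506 CPM. Cd47, a surface protein found on most cells, had a log2 fold of 0.48.

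Of the enzyme and antioxidant list, 7 of 10 measured genes were counted and 6 were at least 4-fold higher. Gpx1, a glutathione peroxidase, stood at 13522, 7874 and 6776 CPM in APOE2, APOE3 and APOE4, against 665 in the other cells, a log2 fold of 4.03, which was 1.30 in the 15 members with at least 500 genes and under 10% mitochondrial UMIs. Prdx2, a peroxiredoxin abundant in red cells, had a log2 fold of 3.33, the biliverdin reductase Blvrb 3.55 and catalase, Cat, 4.58. Bpgm and Car2 were the others, and Sod1, superoxide dismutase, had -0.49. The list's median was 4.03. In the low-gene cells Gpx1 stood at 26335, 42892 and 16480 CPM, highest in APOE3 from 105 UMIs.

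Of the late maturation and clearance list, 12 of 17 genes were counted and 9 were at least 4-fold higher, with a median log2 fold of 5.48. Mkrn1, a ubiquitin ligase, stood at 5671, 4281 and 6490 CPM in APOE2, APOE3 and APOE4, against 30.4, a log2 fold of 7.57. In the low-gene cells it stood at 11128, 23284 and 15658 CPM, so that APOE3, with 57 UMIs, turned from the lowest to the highest. Trim10, an erythroid gene of the TRIM family, had a log2 fold of 12.05, Ube2o, a ubiquitin enzyme that removes ribosomes in reticulocytes, 6.27, and Bnip3l, the receptor that marks mitochondria for removal, 4.69. Isg20, Ube2l6, Gabarapl2 and Ube2h were also among the 9. Map1lc3b, an autophagy protein, had a log2 fold of 1.94 over all members and 2.88 in the low-gene cells, and Arl4a -0.72. Of the list's genes counted in the low-gene cells, 11 of 11 were at least 4-fold higher, beside 158 of all 838 genes counted there. A gene could be counted through its high level in these cells alone, so the 11 are a description.

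Genes of earlier stages were sparse. Of 12 erythroid transcription factors, 2 were counted, Lmo2 with a log2 fold of 4.62 and Foxo3 with 1.88. The 12 genes together held 97 UMIs. Of the 7 genes of early progenitors, Kit, Myb, Epor, Car1 and Hmga2 had no UMI, Gata2 had 1, and Cd34 had 23, all of them outside the 106 low-gene cells. Klf1 had a UMI in 0 of 126 members, which as 3 counts of the total allows a share of cells with a UMI of up to 2.38%. It had a UMI in 0.274% of the other cells, below that limit, so a difference was not detectable at this depth.

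**Figure D4:**
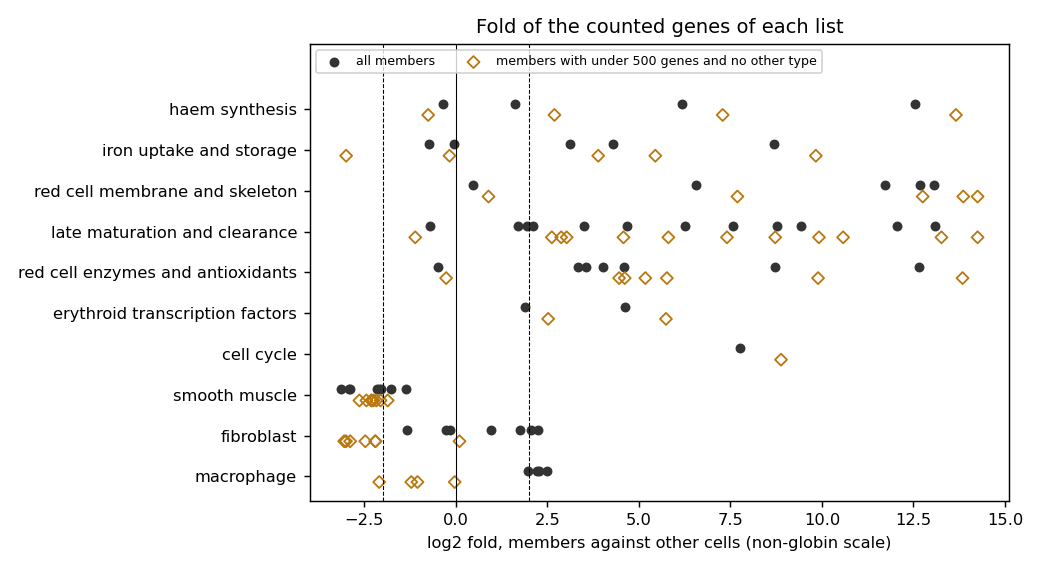
Log2 fold of erythroid against other cells (horizontal, non-globin scale) for each counted gene of 10 lists (rows). Filled points are all 126 members and open diamonds the same genes in the 106 low-gene cells, where they had at least 1 UMI there, and dashed lines mark 4-fold. Haem, membrane, enzyme and late maturation genes reach far to the right in both sets, while the fibroblast and macrophage points move left in the low-gene cells.

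Cell cycle transcripts came mostly from 1 gene. Of 10 cell cycle genes only Ube2c, a ubiquitin enzyme of the anaphase-promoting complex, was counted, at 860 CPM in APOE2, 528 in APOE3 and 1047 in APOE4, against 4.09 in the other cells, a log2 fold of 7.75. It gave 153 of the list's 167 UMIs, while Mki67 had 1, Top2a 2 and Cdk1 none. Counting cells with at least 2 UMIs of the list gave 38 of 126 members, and leaving out Ube2c gave 1.

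The share of members with a UMI of each marker depended on depth, so every cell was also thinned to 1000 UMIs, which left out 6 members. Alas2 was found in 92.9% of members before and 84.2% after thinning, against 0.174% of thinned other cells. Bpgm was found in 92.1% and 79.2%, against 1.61%, and Mkrn1 in 88.9% and 65.8%, against 3.08%. Slc4a1 was found in 34.1% of members before thinning and 14.2% after it, against 0.0155%, and Ube2c in 48.4% and 18.3%, against 0.182%. All these shares were above those of the other cells, but the genes were named as markers or for their levels in the same members. The shares are thus descriptions.

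Some of the leading genes are known to be induced by interferon. Rsad2, which encodes the antiviral protein viperin, stood at 2894 CPM in APOE2, 740 in APOE3 and 1751 in APOE4, against 2.02 in the other cells, a log2 fold of 10.16. Isg20, an exonuclease, stood at 3774, 2061 and 2836 CPM, against 4.77. Ube2l6, the enzyme that attaches the ubiquitin-like protein ISG15, stood at 4547, 2695 and 3102 CPM, against 9.01. Over all members APOE2 was the highest in each of the 3. Low-gene cells held Isg20 at 7377, 10212 and 6766 CPM and Ube2l6 at 8902, 15931 and 7442, with APOE3 highest from 25 and 39 UMIs. Isg15, chosen after its values were seen, stood at 3432 CPM in APOE2, 1902 in APOE3 and 876 in APOE4, against 20.6, from 351, 36 and 46 UMIs, and was found in 62 of 126 members. These genes belong to no interferon list set up for the comparison.

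Fibroblast and macrophage markers came largely from a few members, and smooth muscle markers less so. Over all members, the 9 smooth muscle markers summed to 2440 CPM against 14974 in the other cells, with 6 of 8 counted genes at least 4-fold lower and Tpm2 the most abundant. Of their 424 UMIs 38.0% lay in 4 members, and in APOE3 77 of 88 lay in 1, while in the low-gene cells the sum was 2986 CPM. The 7 fibroblast markers summed to 9606 CPM against 3906, with 2 genes at least 4-fold higher, but 96.2% of their 1669 UMIs lay in 9 cells. In the low-gene cells the sum was 642 CPM, with 4 of 4 counted genes at least 4-fold lower. By library the low-gene sum was 495 CPM in APOE2, 4085 in APOE3 from 10 UMIs and 580 in APOE4. The other cells of these libraries had 4057, 3730 and 3879 CPM, so APOE3 was not lower. Dcn, decorin, was the most abundant.

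The 9 macrophage markers summed to 1951 CPM against 440, with 3 of 4 counted genes at least 4-fold higher, and 95.9% of their 339 UMIs lay in 2 APOE2 cells. In the low-gene cells the sum was 167 CPM, led by Lyz2 with 5 UMIs. B lymphocyte markers had 53 UMIs, 49 of them from Ebf1. Of the 53, 16 lay in the 1 member with at least 10 and 2 in the low-gene cells. Neutrophil markers had 8 UMIs, of which 6 lay in the low-gene cells. Endothelial markers had 20 UMIs in all, or 115 CPM against 56.8 in the other cells. Of the 20, 8 and 6 lay in APOE2 members of 1005 and 753 genes without an Alas2 UMI, and 3 in the low-gene cells. Platelet markers had 6 UMIs and T lymphocyte markers 1, and thymocyte, mast cell and adipocyte markers had none. The defining genes Cd3d, Rag1, Cpa3 and Adipoq were at 0. The part of these other transcripts in the folds of the erythroid genes was not tested. In the 106 low-gene cells Alas2 stood at 20623 CPM.

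Transcripts of ribosomal proteins and of the mitochondrion were measured as a share of the non-globin UMIs of each cell, using the low-gene cells. Ribosomal protein transcripts had a median of 8.64% in APOE2 (interval of the median 6.62% to 13.5%), 6.19% in the 4 APOE3 cells and 4.73% in APOE4 (3.45% to 7.10%). Across single cells they ran from 1.92% to 45.4% in APOE2 and from 1.54% to 22.2% in APOE4, so the ranges overlapped. The low-gene APOE2 cells with 7 smooth muscle UMIs each stood at 16.0% and 15.4%. In the other cells the medians were 13.6%, 12.5% and 13.6%, above the erythroid medians in each library. Mitochondrial transcripts had medians of 4.26%, 2.24% and 2.96%, against 2.16%, 1.63% and 2.69% in the other cells, with single cells up to 45.1% in APOE2 and 74.3% in APOE4. Because the filter kept only cells with under 20% mitochondrial UMIs of the total, cells with such high shares were kept through their globin content.

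**Figure D5:**
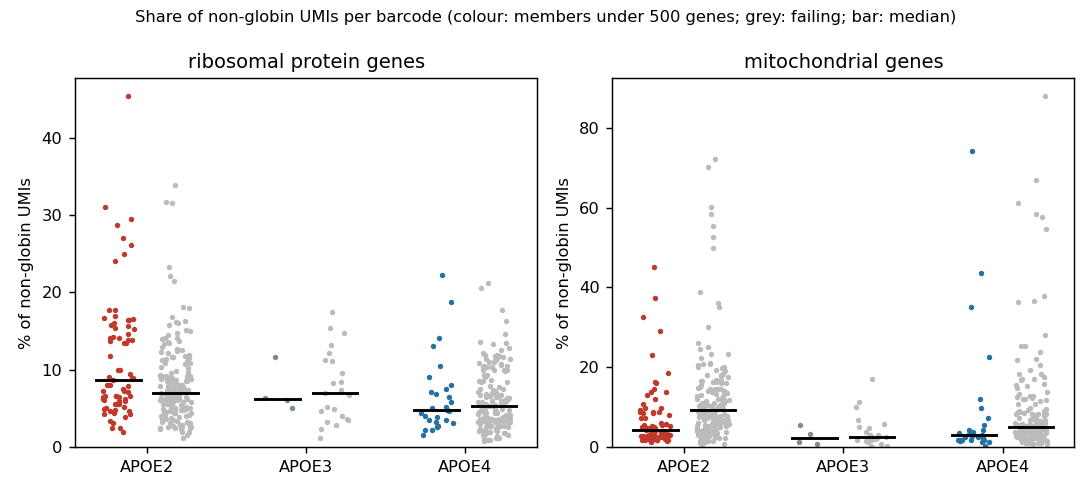
Share of non-globin UMIs (vertical, %) from ribosomal protein genes (left) and mitochondrial genes (right) for each barcode, by library. Coloured points are the members with under 500 genes and under 10 UMIs of every other type's marker list. Grey points are the barcodes that failed the filter, and bars the medians. The APOE2 members reach higher ribosomal protein shares, with a median of 8.64% against 4.73% in APOE4.

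Haem synthesis genes took 2.44% of the non-globin UMIs of the median low-gene APOE2 cell, 3.93% over the 4 APOE3 cells and 3.08% in APOE4, against 0.0312%, 0.0330% and 0.0286% in the other cells. Across the 106 low-gene cells this share and the globin share were correlated with a Spearman coefficient of 0.54, with 0.63 over the 73 APOE2 cells and 0.24 over the 29 APOE4 cells. The low-gene globin share went down to 36.0% in APOE2, in a cell with 0 haem synthesis UMIs, and to 58.9% in APOE4. The part of such APOE2 cells in the 2 coefficients was not tested. The low-gene cells share libraries and free RNA, and the globin share was used to choose them, so the coefficients are descriptions.

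The most abundant transcripts besides globins, named after their values were seen, were not all erythroid. Gm42418 gave 10179 UMIs or 58588 CPM, against 5969 in the other cells. It lies at chr17:39846958-39848788 and overlaps an annotated ribosomal RNA gene on the other strand, so its counts are uncertain. Malat1, a nuclear non-coding RNA, gave 5147 UMIs, of which 28.5% came from 1 cell. Over the low-gene cells it stood at 4925 CPM against 26867 in the other cells, and its median share was 0.42% in APOE2 and 0.32% in APOE4, against 2.52% and 2.51% in the other cells. After Gm42418, the low-gene cells held most UMIs of Ubb, a ubiquitin gene, with 1825, Gpx1 with 1724, Alas2 with 1478 and the translationally controlled Tpt1 with 1224.

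Expression was then set side by side between the APOE2 and APOE4 erythroid cells, which held 102276 and 52540 non-globin UMIs, over genes with at least 50 UMIs in both together. APOE3, with 6 members, was left out. Of 370 such genes, 46 were at least 2-fold higher in APOE2, which is 12.4%, and 23 at least 2-fold lower, which is 6.22%, with a median log2 ratio of 0.26. In 19 of these genes at least 50% of the UMIs came from 1 cell. Among low-gene cells 37 of 192 genes were as much higher in APOE2, or 19.3%, and 9 as much lower, or 4.69%.

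The extremes over all members were genes of other cell types. C1qa and C1qb, complement genes of macrophages, had 87 and 68 UMIs in APOE2 and none in APOE4, and 86 and 65 of them lay in 1 cell each. Mmp3, a matrix protease, had 162 UMIs in APOE2 and 1 in APOE4, with 161 in 1 cell. Rbp7, a retinol-binding protein, had 61 in APOE2 and none in APOE4, and Gpx3, a secreted peroxidase, had 52 and none. On the other side Igfbp5 had 2 UMIs in APOE2 and 54 in APOE4, and the collagen genes Col1a1 (12 and 39) and Col1a2 (26 and 74), the integrin gene Itga8 (18 and 48) and the proteoglycan gene Bgn (33 and 79) were also lower in APOE2. The low-gene cells held 2 and 0 UMIs of Igfbp5 in APOE2 and APOE4, 3 and 0 of Col1a1, and 10 and 1 of Itga8, so these differences came from the deeper members.

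Within the low-gene cells the genes highest in APOE2 were mostly those of ribosomal proteins. Rpl30 had 51 UMIs in APOE2 and 4 in APOE4, a log2 ratio of 2.29 (1.00 to 4.37), and Rps7 had 90 and 8, a log2 ratio of 2.18 (1.22 to 3.52). Rpl23a had a log2 ratio of 2.03 and Rps3 1.71, and Gng5, a G protein subunit and not a ribosomal gene, 2.27. Of 53 counted ribosomal protein genes, 28 were at least 2-fold higher in APOE2 and none as much lower, with a median of 1.09, beside 19.3% higher and a median of 0.13 over all 192 genes. The count depended on the choice of cells. Without only the 14 members with at least 10 UMIs of another type, 4 of 65 ribosomal protein genes were as much higher and 1 lower. Their median was 0.45, and 17 of all 218 genes counted there were as much higher. With at least 20% globin 34 of 78 were as much higher, with a median of 0.96. Over all genes counted there 97 were as much higher, but their number is not given here, so the shares are not compared. Over all members 4 of 79 were at least 2-fold higher, a smaller share than the 12.4% of all 370 genes, and none as much lower, with a median of 0.54 beside 0.26 over all genes. Lowest in APOE2 within the low-gene cells were Rec114 at -1.98, the mitochondrial mt-Nd3 at -1.74 and mt-Nd1 at -1.12, the kinase gene Cdk8 at -1.39 and Cox6c, of cytochrome oxidase, at -1.28. The mitochondrial ratios are of summed UMIs, of which 1 APOE4 cell gave 86 of the 192 mt-Nd1 UMIs of that pool, and the median mitochondrial share per low-gene cell ran the other way, at 4.26% in APOE2 and 2.96% in APOE4.

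Among erythroid genes Alas2 was close between APOE2 and APOE4, with 1025 and 502 UMIs and a log2 ratio of 0.07 (-0.09 to 0.23), and in the low-gene cells of -0.20 (-0.36 to -0.04). Bpgm had log2 ratios of -0.09 over all members and -0.45 (-0.63 to -0.28) in the low-gene cells. Slc4a1, with 67 and 17 UMIs, stood at 0.99 (0.23 to 1.88) and in the low-gene cells at 0.85 (0.0597 to 1.80). Epb41 was lower in APOE2, at -0.80 over all members and -1.06 (-1.36 to -0.76) in the low-gene cells.

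Gpx1 had log2 ratios of 1.00 (0.83 to 1.17) over all members, 2.00 in the 15 members with at least 500 genes and under 10% mitochondrial UMIs, and 0.67 (0.50 to 0.85) in the low-gene cells. Isg15 was 1.96 above APOE4 (1.52 to 2.45), and in the low-gene cells 1.65 (1.21 to 2.15) from 335 and 45 UMIs, found in 42 of 73 APOE2 and 11 of 29 APOE4 cells. Rsad2 was 0.72 above (0.38 to 1.08), and 0.45 (0.11 to 0.81) in the low-gene cells. These intervals leave out the spread between mice, which pooling hides.

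The 359 barcodes that met the globin and smooth muscle limits but failed the filter shared some features of the low-gene cells and differed in others. Their median globin share was 82.0%, with 1367 UMIs and 127 genes. Of 1231 counted genes, 121 were at least 4-fold higher than in the other cells, among them 2 of 3 haem, 5 of 6 membrane, 7 of 11 late maturation and 6 of 6 enzyme genes. Alas2 was found in 324 of the 359, at 21120 CPM, close to the 20623 of the low-gene cells, whereas Gpx1 stood at 5406 against 24055. Hbb-bt gave 11.6% of their beta UMIs, against 18.4% in the members. Red cell enzyme genes took 0.855% of the non-globin UMIs of the median failing barcode against 5.34% in the low-gene cells, and late maturation genes 2.81% against 6.28%. Mitochondrial transcripts took 6.61% against 3.55%, and the median alpha share over barcodes with at least 50 globin UMIs was 41.2% against 32.1%. The part of the lower depth in these differences was not tested.

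Globin transcripts were also spread over the other cells. At least 1 globin UMI was found in 31.9% of the other APOE2 cells, 15.2% of the APOE3 and 35.7% of the APOE4 cells, at 606, 129 and 434 globin UMIs per 1000000. By this level APOE2 was highest and by the share of cells with a globin UMI APOE4, with APOE3 lowest in both. The level came mostly from smooth muscle cells, which held 166171 of the 171869 globin UMIs of the other cells, and a few cells carried it, since the median smooth muscle cell had 0 globin UMIs, 106 of them had at least 1% globin, and 58 of the other cells met the globin limit but not that on Acta2 and Tagln. In B lymphocytes the level was 59.2, 59.0 and 111 and in T lymphocytes 54.8, 10.4 and 76.6, highest in APOE4. In fibroblasts it was 154, 11.4 and 99.6 and in macrophages 154, 43.1 and 138, highest in APOE2. Smooth muscle cells and neutrophils were also highest in APOE2, and endothelial cells in APOE4. Types that do not make globin had such a UMI in 29.6% of smooth muscle, 25.2% of fibroblast, 31.4% of macrophage, 32.2% of T lymphocyte and 29.4% of B lymphocyte cells, with each cell classed by its marker UMIs. Of the globin UMIs in cells that passed the filter, 77.5% in APOE2, 73.8% in APOE3 and 78.4% in APOE4 lay in the erythroid cells. The failing barcodes held a further 233889, 51844 and 415153 globin UMIs, against 350052, 45360 and 196371 in the erythroid cells.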

How the data were processed

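Single-cell RNA-seq of 3 pooled aortic libraries was used. The authors aligned reads to mm10 with Cell Ranger (7.0.1 in the file headers) and deposited unnormalized UMI counts of 32285 genes for every barcode called. Barcodes that their later filter on depth, genes and mitochondrial counts would remove are still in these counts, and its limits are not given in the sources used here. The cells kept held 168310501 (APOE2), 125105151 (APOE3) and 124926887 (APOE4) UMIs.

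Members, gene lists and alternatives were chosen with earlier results of these data known. Levels are UMIs summed over cells per 1000000 non-globin UMIs, and ratios add 0.5 UMIs to each count. Shares have Clopper-Pearson, levels Poisson and ratios conditional binomial 95% intervals. No test between genotypes was possible. Doublets were kept and no doublet caller was run. Named genes were the markers, 4 genes of most UMIs per list, the 20 largest folds among genes with at least 50 UMIs that were higher in each library of at least 20 members, and the 5 highest and 5 lowest APOE2 to APOE4 ratios. Simulated counts held 200 changed genes in each comparison. Of these, 60 of 16-fold (members against other cells) and 92 of 4-fold (APOE2 against APOE4) were counted, all in the right direction. The changed genes that were not counted say nothing on direction. Of 2685 and 375 genes, 95.7% and 97.1% lay within the interval. The simulation held counting error only, with no spread between cells and no cell that gave most UMIs of a gene. It therefore does not show how the intervals perform where deep members dominate. Coordinates are from GENCODE vM21, which matched 32158 gene identifiers. Python 3.11.15, numpy 2.4.6, scipy 1.17.1, pandas 2.3.3 and Biopython 1.88 were used. Some genes that met the naming rule are not reported here.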

Additional observations from a re-analysis of the deposited data

Results flagged for a closer look

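Barcodes that met the globin and smooth muscle limits but failed the filter on genes or mitochondrial UMIs are outside the main values, and they outnumbered the erythroid cells in each library. There were 170 in APOE2 (1.38% of 12288 deposited barcodes), 23 in APOE3 (0.317% of 7247) and 166 in APOE4 (1.85% of 8971). By these barcodes alone APOE2 was below APOE4, with a log2 ratio of -0.42 (-0.74 to -0.10), the opposite order to the cells that passed.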

How the results depend on the processing

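No paired analysis was possible because each genotype has 1 library. The use of all deposited barcodes and of the 106 low-gene cells was chosen after seeing the data. In every alternative run APOE3 had the lowest erythroid share. With 500 genes and 10% mitochondrial UMIs as limits, 15 cells were left, with shares of 0.0716%, 0.0305% and 0.0637%, log2 ratios of 1.23 (APOE2 to APOE3) and 0.17 (APOE2 to APOE4), a median globin share of 34.5%, an alpha share of 31.2%, an Hbb-bt share of 18.0%, and 90 genes higher and 58 lower than in other cells, while Bpgm turned to 2.13 between APOE2 and APOE4. Over all barcodes the shares were 2.08%, 0.400% and 2.24%, the APOE2 to APOE4 ratio turned to -0.11, the alpha share was 33.9% and the Hbb-bt share 14.8%. Without the Acta2 and Tagln limit the shares were 0.994% (APOE2) and 0.655% (APOE4), and APOE3 had 13 members in place of 6. The median globin share was then 66.6%, the Hbb-bt share 18.0%, with 73 genes higher and 14 lower, and 50 lower in APOE2. Without the 14 members with at least 10 UMIs of another type the alpha share was 32.2% and 213 genes were lower. In APOE2 17 genes were then higher and 6 lower, and Igfbp5, Col1a1 and Itga8 turned to 1.15, 0.0546 and 0.98. In the low-gene cells 263 genes were lower, 9 lower in APOE2, and Igfbp5, Col1a1, Itga8 and Malat1 turned to 1.09, 1.58, 1.58 and 0.72. With at least 20% globin, 97 genes were higher in APOE2 and Col1a1 turned to 0.0551. Without the deepest member of each library Mmp3 turned to -1.18. On the scale of all UMIs 61 genes were higher and 4307 lower, and by the mean over cells 420 were lower. A minimum of 10 UMIs gave 163 lower, 285 higher in APOE2 and 323 lower, and one of 100 UMIs gave 72 higher and 30 lower, with 20 higher in APOE2 and 9 lower. Leaving out 1 library gave 95 to 155 genes higher and 43 to 110 lower, the lowest of both without APOE2. The median over cells put Hbb-bt at 18.2%. Thinned to 500 UMIs and not thinned, Alas2 was found in 66.7% and 92.9% of members and the cell cycle list in 1.59% and 30.2%, beside 84.2% and 5.83% when thinned to 1000 UMIs. The median ratio of ribosomal protein genes was above 0 in every alternative, from 0.16 to 1.09, with 0 to 34 of them at least 2-fold higher in APOE2, and that of Isg15 from 1.28 to 2.81. The 0.16 came without the Acta2 and Tagln limit. Over all genes counted the median was 0.26 in the main run and 0.13 in the low-gene cells, and is not given for the other alternatives. A ribosomal median above 0 is thus not shown to be above that of all genes. The causes of the changes between settings were not tested. The 6 APOE3 cells limit any value of that library.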
